A study of Mus musculus with 3 samples.

Results

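The glomerular basement membrane genes are the 10 genes *Col4a1*, *Col4a2*, *Col4a3*, *Col4a4*, *Col4a5*, *Lama5*, *Lamb2*, *Lamc1*, *Agrn* and *Hspg2*, chosen by symbol among the 32285 genes of the count tables. They were followed in podocyte-like, endothelial-like and mesangial-like cells from glomeruli that had been isolated from mouse kidneys and sequenced cell by cell in droplets. There were 3 libraries and 1 per group. The MRL/lpr library came from MRL/lpr mice, a lupus-prone strain that carries the lpr mutation of *Fas* and develops nephritis. The MRL/lpr + hUC-MSC library came from MRL/lpr mice given mesenchymal stem cells of human umbilical cord (hUC-MSCs). Per the study's methods the MRL/lpr mice were female, were taken as having nephritis once urinary protein had risen and hair had been lost, and, where they received hUC-MSCs, were given them by tail vein. Both MRL/lpr libraries were taken at the same time point, some weeks after treatment. The control library is labelled as a blank control, and its strain and age and the number of mice pooled into any library are not stated for this experiment in the sources used here, while elsewhere in the study the controls of MRL/lpr mice were MRL/MpJ mice. Strain, disease and library therefore cannot be told apart between control and MRL/lpr, nor treatment and library between both MRL/lpr libraries. All intervals below cover counting error only.

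The glomerular basement membrane lies between the fenestrated endothelium and the podocytes and is part of the filter of the kidney. Its scaffold is type IV collagen, in which the α1 and α2 chains (*Col4a1*, *Col4a2*) form a network made early in development and kept in the mesangium, and the α3, α4 and α5 chains (*Col4a3*, *Col4a4*, *Col4a5*) form the network of the mature filter, whose loss causes Alport syndrome. The other network is laminin 521, built of α5, β2 and γ1 chains (*Lama5*, *Lamb2*, *Lamc1*), and agrin (*Agrn*) and perlecan (*Hspg2*) are heparan sulfate proteoglycans of the membrane.

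Collagen genes *Col4a1* to *Col4a4* lie in head-to-head pairs, and 3 promoter windows are shown because the genes of each pair shared their leading cell class. In GENCODE M21 (GRCm38, the mm10 assembly), *Col4a1* (chromosome 8, 11198423 to 11312826, minus strand) and *Col4a2* (chromosome 8, 11312805 to 11449287, plus strand) have 5′ ends 21 bases apart, and the gene models overlap there. *Col4a4* (chromosome 1, 82448423 to 82586849, minus strand) and *Col4a3* (chromosome 1, 82586921 to 82722059, plus strand) have 5′ ends 72 bases apart. The windows are those of RefSeq on GRCm38.p6, each 300 bases around a start of transcription and written along its own gene, and 8 of the 10 genes had one, in 9 windows. Capitals mark a GC box (GGGCGG on either strand) or a CCAAT box (those letters on either strand).
*Col4a1*, chr8:11312777-11313076, minus strand: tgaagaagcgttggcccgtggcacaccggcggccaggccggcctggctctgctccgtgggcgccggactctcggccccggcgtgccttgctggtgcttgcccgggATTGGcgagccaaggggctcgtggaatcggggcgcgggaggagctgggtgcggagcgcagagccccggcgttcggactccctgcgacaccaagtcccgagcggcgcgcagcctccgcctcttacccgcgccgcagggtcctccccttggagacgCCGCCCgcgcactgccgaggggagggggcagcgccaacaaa
*Col4a2*, chr8:11312555-11312854, plus strand: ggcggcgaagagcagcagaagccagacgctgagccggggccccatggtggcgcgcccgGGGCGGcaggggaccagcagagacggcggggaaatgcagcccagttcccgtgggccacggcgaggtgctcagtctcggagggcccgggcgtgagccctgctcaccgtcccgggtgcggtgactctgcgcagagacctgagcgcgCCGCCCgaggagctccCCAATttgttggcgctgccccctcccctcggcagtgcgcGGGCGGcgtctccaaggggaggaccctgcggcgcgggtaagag
*Col4a4*, chr1:82586800-82587099, minus strand: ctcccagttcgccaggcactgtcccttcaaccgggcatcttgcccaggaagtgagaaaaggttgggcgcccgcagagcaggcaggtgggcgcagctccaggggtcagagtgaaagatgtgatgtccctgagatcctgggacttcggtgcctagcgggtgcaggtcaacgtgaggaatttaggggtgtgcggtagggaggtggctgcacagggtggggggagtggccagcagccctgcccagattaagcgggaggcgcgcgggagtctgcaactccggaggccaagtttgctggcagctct
The windows of *Col4a1* and *Col4a2* share 78 bases, and the *Col4a4* window also holds the 5′ end of *Col4a3*. The GC box letters stood 1 time in the *Col4a1* window and 3 times in that of *Col4a2*, and the CCAAT letters 1 time in each. The *Col4a4* window held neither. The GC box of the *Col4a1* window lies in the shared bases and is the same site as the last one of the *Col4a2* window. Among all 32851 mouse windows of this length, 35.7% held the GC box letters and 37.4% the CCAAT letters. The letters TATAAA were in 13.6% of all windows and in none of the 9 windows of these genes. The letters TAATTA were in 5.29% of all windows and likewise in none of the 9. The windows were 74% (*Col4a1*), 73.7% (*Col4a2*) and 63.3% (*Col4a4*) G and C, against a median of 52.7% over all windows.

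After barcodes under 1000 UMIs (unique molecular identifiers, each a counted transcript molecule) and over 10% mitochondrial UMIs were left out, 11018 barcodes remained in control, 14109 in MRL/lpr and 16586 in MRL/lpr + hUC-MSC, at medians of 5069, 3716 and 2727 UMIs. Without predicted doublets, podocyte-like cells numbered 2307, 769 and 133 in that order, or 22.96, 6.14 and 0.925% of each library's cells. Endothelial-like cells numbered 5573, 3497 and 4192, and mesangial-like cells 456, 432 and 503. These numbers moved with the clustering, to 872, 1290 and 1103 mesangial-like cells at Leiden resolution 2.0, a finer clustering, and to 722, 1006 and 814 mesangial-like and 5593, 3871 and 2666 endothelial-like cells with the members kept for clustering. In each library 10 of 10 podocyte, 10 of 10 endothelial and 8 of 8 mesangial markers were at least 2-fold above their level in free RNA in their own class. No marker of another of these classes was, except 1 endothelial marker in mesangial-like cells of both MRL/lpr libraries. The clusters had been named from these same markers, so these counts describe the classes and do not test their names. Different clusters held most of a class in different libraries, apart from podocyte-like cells, which were 1 cluster. Endothelial-like cells were mostly clusters 2 and 3 in control, cluster 15 in MRL/lpr and cluster 6 in MRL/lpr + hUC-MSC. Of these, clusters 2 and 3 scored highest for glomerular capillary markers, 15 for arteriolar and 6 for peritubular or venous markers, with 1, 1, 0 and 2 of those markers past 2-fold against the other endothelial-like cells in clusters 2, 3, 15 and 6. Mesangial-like cells were mostly cluster 12 in control and cluster 24 in both MRL/lpr libraries, at median depths of 21409.5, 11229 and 11595 UMIs. Between 35 and 61 barcodes were shared by any pair of libraries, at most 0.432% of either one.

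Free RNA is the RNA outside cells that every droplet takes up, read here from barcodes with 1 to 100 UMIs. From markers of other cell types, its share of the UMIs was estimated as 2.48% to 5.68% in podocyte-like, 3.84% to 8.42% in endothelial-like and 2.64% to 5.08% in mesangial-like cells. This share times a gene's level in free RNA is the level that free RNA alone would leave in a class. Levels are given as UMIs per 1000000 UMIs of the class (CPM), in the order control, MRL/lpr, MRL/lpr + hUC-MSC, with 95% exact Poisson intervals where shown. UMIs were not corrected for transcript length, so levels are compared within a gene and not between genes.

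Podocyte-like cells led for the α3, α4 and α5 chains. *Col4a3* was at 1273 CPM (1255 to 1290.0), 1289 CPM (1260.2 to 1318) and 1769 CPM (1688 to 1852) in podocyte-like cells. It was at 15.7, 17.4 and 7.26 CPM in endothelial-like and at 13.4, 8.70 and 3.76 CPM in mesangial-like cells. The podocyte-like level was thus 81.3, 74.1 and 244 times that of the next class, with no overlap of the classes. *Col4a4* was at 843, 978 and 1178 CPM in podocyte-like cells, 76.5, 87.7 and 217 times the next class. *Col4a5*, an X-linked gene (chromosome X, 141475385 to 141689234, plus strand), was at 147, 183 and 282 CPM in podocyte-like, 1.19, 2.65 and 1.90 CPM in endothelial-like and 1.20, 1.24 and 0.903 CPM in mesangial-like cells.

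The low levels of these 3 chains outside podocyte-like cells were near those that free RNA leaves. In endothelial-like cells *Col4a3* was 1.34 to 1.70 times, *Col4a4* 1.21 to 1.31 times and *Col4a5* 0.862 to 1.91 times the level expected from free RNA. In mesangial-like cells the 3 chains were at 0.852 to 2.15 times it. In free RNA itself *Col4a3* was at 240.1, 130.5 and 71.7 CPM, lower where the library held fewer podocyte-like cells. With every cell thinned to 1000 UMIs, 67.3% (65.3 to 69.2), 66.4% (63.0 to 69.8) and 75.2% (67.0 to 82.3) of podocyte-like cells had a *Col4a3* UMI (exact binomial 95% intervals). The share was 1.67%, 1.46% and 0.859% in endothelial-like cells and 2.19%, 1.82% and 1.45% in T cell and NK cell-like cells, which should lack the gene. Without thinning the shares were 98.7%, 98.8% and 99.2% of podocyte-like cells, at median depths of 6696, 7326 and 6977 UMIs. They were 6.57%, 5.06% and 2.25% of T cell and NK cell-like cells, at 2943, 2292 and 1794 UMIs.

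Among the 3 classes, mesangial-like cells led for the α1 and α2 chains, with endothelial-like cells next. *Col4a1* was at 1170.5 CPM (1150.2 to 1191), 1407 CPM (1376 to 1438) and 1760.5 CPM (1729 to 1793) in mesangial-like cells. In endothelial-like cells it was at 255, 365 and 558 CPM, so the mesangial-like level was 4.59, 3.85 and 3.15 times as high. *Col4a2* was at 605, 1039.8 and 1262 CPM in mesangial-like and at 144, 252 and 418 CPM in endothelial-like cells, a ratio of 4.19, 4.13 and 3.02. In podocyte-like cells *Col4a1* was at 5.68, 15.02 and 29.3 CPM, where free RNA alone would leave 6.83, 23.9 and 30.5 CPM. *Col4a2* was at 4.33, 13.5 and 27.3 CPM there, where free RNA would leave 4.63, 17.7 and 23.7 CPM, so neither chain was measured at 2 times the free RNA level in podocyte-like cells. After thinning, a *Col4a1* UMI was seen in 62.5%, 71.1% and 79.7% of mesangial-like and 21.5%, 30.6% and 38.9% of endothelial-like cells. It was seen in 0.694%, 1.30% and 2.26% of podocyte-like and 2.19%, 5.26% and 7.88% of T cell and NK cell-like cells.

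**Figure D1:**
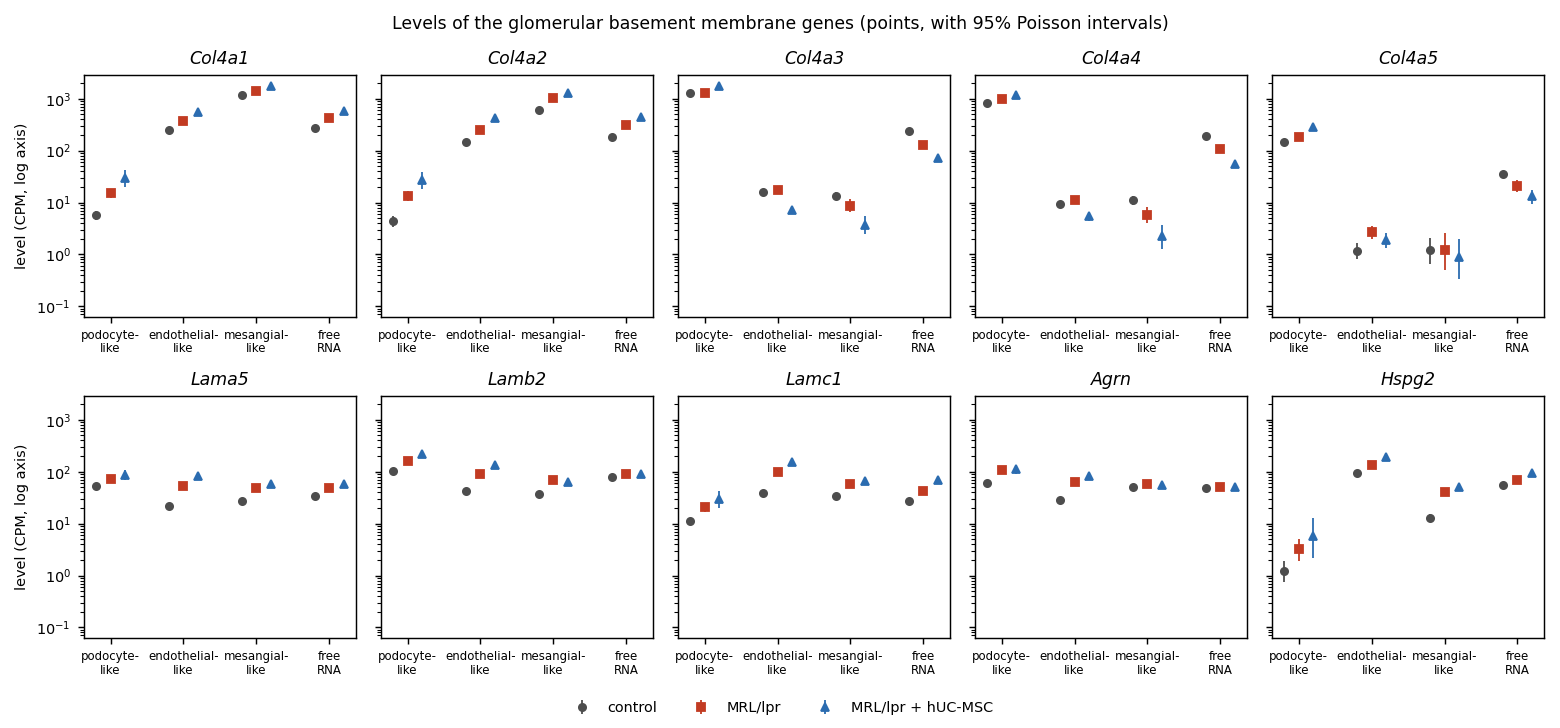
Level of each gene (CPM, log axis) in podocyte-like, endothelial-like and mesangial-like cells and in free RNA, by library, with 95% Poisson intervals. *Col4a3*, *Col4a4* and *Col4a5* were highest in podocyte-like cells, *Col4a1* and *Col4a2* in mesangial-like cells and *Hspg2* in endothelial-like cells in all 3 libraries, and the other 4 genes were closer together across classes.

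Perlecan was highest in endothelial-like cells. *Hspg2* (chromosome 4, 137468769 to 137570630, plus strand) was at 93.0, 132 and 195 CPM in endothelial-like cells and at 12.8, 41.2 and 51.0 CPM in mesangial-like cells, a ratio of 7.28, 3.21 and 3.82. In podocyte-like cells it was at 1.24, 3.21 and 5.86 CPM, from 20, 19 and 6 UMIs, which was 0.826 to 1.18 times the level expected from free RNA. Agrin, the other heparan sulfate proteoglycan, was spread over the classes. *Agrn* (chromosome 4, 156165290 to 156197488, minus strand) was at 60.9, 106 and 111 CPM in podocyte-like, 28.0, 63.6 and 81.5 CPM in endothelial-like and 50.6, 57.1 and 54.5 CPM in mesangial-like cells, 14.7 to 50.8 times the level from free RNA.

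The laminin 521 genes were at least 2 times the free RNA level in all 3 classes, and none had a single leading class. *Lama5*, the α5 chain (chromosome 2, 180176373 to 180225859, minus strand), was at 52.1, 72.7 and 85.9 CPM in podocyte-like, 22.02, 52.4 and 84.4 CPM in endothelial-like and 27.7, 47.9 and 58.5 CPM in mesangial-like cells. Podocyte-like cells were highest in each library, but in MRL/lpr + hUC-MSC their interval (68.9 to 106) held the endothelial-like level. *Lamb2*, the β2 chain whose loss causes Pierson syndrome (chromosome 9, 108479736 to 108490530, plus strand), was at 104, 159 and 217 CPM in podocyte-like, 42.7, 91.9 and 132 CPM in endothelial-like and 36.8, 68.9 and 64.0 CPM in mesangial-like cells. *Lamc1*, the γ1 chain (chromosome 1, 153218922 to 153332786, minus strand), had another order, with 11.3, 20.6 and 29.3 CPM in podocyte-like, 39.4, 96.8 and 153 CPM in endothelial-like and 33.3, 58.4 and 65.8 CPM in mesangial-like cells.

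A gene was given a leading class where its level was at least 2-fold above both other classes in all 3 libraries. Of the 10 genes, 3 were led by podocyte-like cells (*Col4a3*, *Col4a4*, *Col4a5*), 2 by mesangial-like cells (*Col4a1*, *Col4a2*) and 1 by endothelial-like cells (*Hspg2*), and 4 had no leading class. Over all 13534 genes tested, 5.75% were led by podocyte-like, 6.27% by mesangial-like and 7.76% by endothelial-like cells. Counted as UMIs per cell, endothelial-like cells led 0 of the 10 genes. Of the *Col4a3* UMIs of all cells, 94.3%, 73.2% and 62.6% lay in podocyte-like cells, and in MRL/lpr + hUC-MSC 31.9% lay outside the 3 classes. Of the *Col4a1* UMIs, 54.7%, 33.1% and 32.5% lay in mesangial-like cells and 13.2%, 38.8% and 38.9% outside the 3 classes. For *Col4a2* these were 51.7%, 32.6% and 31.3%, and 15.1%, 41.6% and 39.8%. Unnamed cells were 8.26, 23.8 and 31.6% of each library's cells. The largest unnamed cluster scored highest for smooth muscle and renin markers and next for mesangial markers. Of the *Lamb2* UMIs, 47.1%, 22.7% and 5.08% lay in podocyte-like and 34.1%, 40.1% and 55.7% in endothelial-like cells. These shares moved with the numbers of cells given above, and fewer podocytes and less RNA per podocyte are separate here only through the levels per class.

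**Figure D2:**
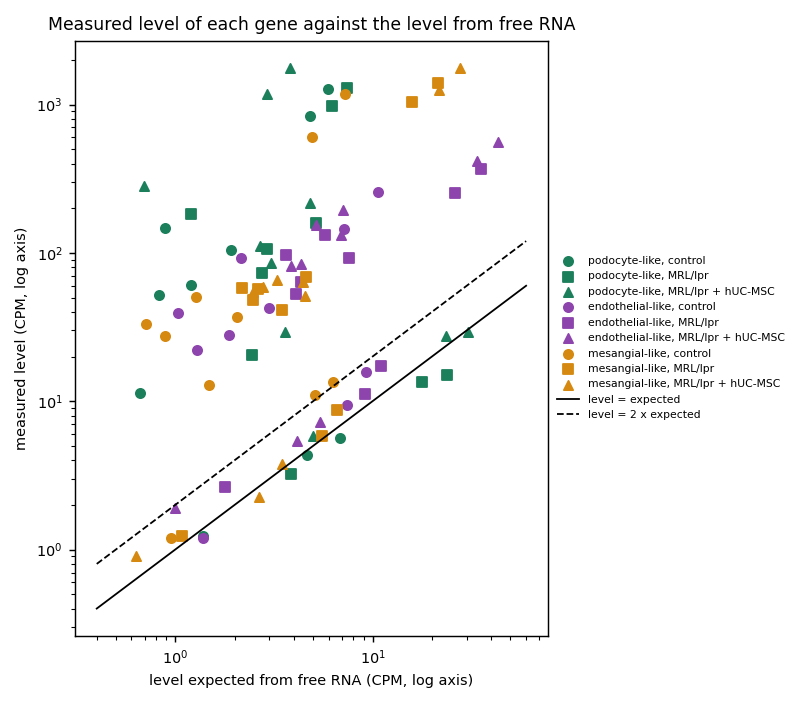
Measured level of each of the 10 genes (CPM, log axis) against the level expected from free RNA (CPM, log axis), 1 point for each gene, class and library. *Col4a1*, *Col4a2* and *Hspg2* in podocyte-like cells and *Col4a3*, *Col4a4* and *Col4a5* in both other classes lie near the solid line of equal levels, between 0.628 and 2.15 times the expected level. Among these, *Col4a3* (2.12 times) and *Col4a4* (2.15 times) in control mesangial-like cells lie just above the dashed line at 2 times. All points outside these sets also lie above it.

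The first comparison between libraries, MRL/lpr over control, asked how these genes differ in glomeruli of lupus nephritis. In endothelial-like cells the laminin and agrin genes were past 2-fold. *Lamc1* was higher by 1.30 on the log2 scale (95% conditional binomial interval 1.19 to 1.40), *Lama5* by 1.25 (1.104 to 1.40), *Agrn* by 1.18 (1.05 to 1.31) and *Lamb2* by 1.11 (1.00 to 1.21). *Col4a2* was higher by 0.80, *Col4a1* by 0.52 and *Hspg2* by 0.51, with intervals above 0. *Col4a5* was also past 2-fold (1.16), from 34 and 48 UMIs and under 2 times the free RNA level. With free RNA subtracted *Col4a5* was at 3.12, a value set by the floor of 3 counts in control. So 5 of 10 genes were past 2-fold, all higher, where 16.2% of all 14772 genes tested were past it in either direction. The median of the 10 log2 ratios was 0.95, and that of all genes was 0.02. Markers of mesangium were also higher in endothelial-like cells of MRL/lpr, 7 of 8 of them, with a summed level of 273, 603 and 597 CPM over the 3 libraries, most of it *Serpine2* at 203, 517 and 485 CPM. The share of free RNA in these cells was 3.84% in control and 8.42% in MRL/lpr. With the expected free RNA subtracted, the log2 ratio was 1.35 for *Lamc1*, 1.29 for *Lama5*, 1.25 for *Agrn* and 1.15 for *Lamb2*. In cells without markers of the other 2 classes it was 1.22, 1.00, 1.34 and 1.26 in the same order. Only 836 endothelial-like cells of control and 241 of MRL/lpr were without them.

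In podocyte-like cells the collagen genes of the mature filter had the smallest ratios. *Col4a3* differed by 0.02 (-0.02 to 0.06) on the log2 scale, *Col4a4* by 0.21 (0.17 to 0.26) and *Col4a5* by 0.31 (0.21 to 0.42). At 200 to 3000 genes per cell *Col4a3* differed by -0.10 (-0.15 to -0.05). *Lamc1* was higher by 0.86 (0.52 to 1.20), *Agrn* by 0.81, *Lamb2* by 0.60 and *Lama5* by 0.48. With free RNA subtracted these were 0.82, 0.84, 0.63 and 0.49. Markers of endothelium, the class with the highest *Lamc1*, were also higher in podocyte-like cells of MRL/lpr, 9 of 10 of them, among them *Kdr* at 5.50, 21.8 and 18.5 CPM, *Cdh5* at 2.53, 12.8 and 14.6 CPM and *Pecam1* at 3.65, 11.3 and 18.5 CPM. *Plat* was lower, at 2398, 1100.2 and 1017 CPM, and with it the summed level of the 10, at 2473, 1289 and 1253 CPM. The part of endothelial RNA in these ratios was not tested. The 3 genes past 2-fold, where 15.6% of all genes were, were *Col4a1* (1.40), *Col4a2* (1.64) and *Hspg2* (1.38), the same 3 that were near the level of free RNA in these cells. In free RNA *Col4a1* was at 276 CPM in control and 421 CPM in MRL/lpr, and the share of free RNA in podocyte-like cells was 2.48% and 5.68%. Of the 7 genes above free RNA, 0 were past 2-fold.

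In mesangial-like cells 1 gene was past 2-fold, against 15.7% of all genes. *Hspg2* was higher by 1.69 (1.38 to 2.00) on the log2 scale, and within cluster 12 alone by 2.68 (2.31 to 3.06). Markers of endothelium, the class that led for *Hspg2*, were also higher in mesangial-like cells of MRL/lpr, 10 of 10 of them, with a summed level of 1739, 3118 and 2304 CPM over the 3 libraries. *Kdr* was at 57.6, 184 and 37.6 CPM, *Cdh5* at 22.8, 93.2 and 26.9 CPM and *Pecam1* at 25.0, 72.1 and 31.6 CPM, beside 12.8, 41.2 and 51.0 CPM of *Hspg2*. The part of endothelial RNA in this ratio was not tested. *Lamb2* was higher by 0.91, *Lamc1* by 0.81, *Lama5* by 0.79, *Col4a2* by 0.78 and *Col4a1* by 0.27, and *Agrn* differed by 0.17 (-0.03 to 0.38). *Col4a3* was lower, at -0.63 (-1.12 to -0.15), as was *Col4a4*, at -0.91 (-1.51 to -0.34). The value of *Col4a4* was 0.00 (-0.39 to 0.37) at Leiden resolution 2.0 and -0.26 (-0.68 to 0.16) with the members kept for clustering. With free RNA subtracted *Col4a3* was at -1.75. *Col4a4* was then at -3.43, a value set by the floor of 3 counts. In MRL/lpr *Col4a4* was at 5.86 CPM, 1.05 times the level expected from free RNA. These values are per 1000000 UMIs of the class, and control cells of this class were the deepest. As UMIs per cell, *Col4a1* was at 27.7 in control and 18.4 in MRL/lpr, a log2 ratio of -0.60. The ratios of *Agrn* (-0.69) and *Col4a2* (-0.08 (-0.13 to -0.03)) were also below 0 per cell. Those of *Lama5* (-0.07 (-0.31 to 0.17)), *Lamc1* (-0.05 (-0.27 to 0.17)) and *Lamb2* (0.04 (-0.16 to 0.25)) had intervals that held 0. That of *Hspg2* was 0.83. Within cluster 12 *Col4a1* differed by 0.04 (-0.03 to 0.12) and *Col4a2* by 0.21 (0.11 to 0.31) on the CPM scale.

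**Figure D3:**
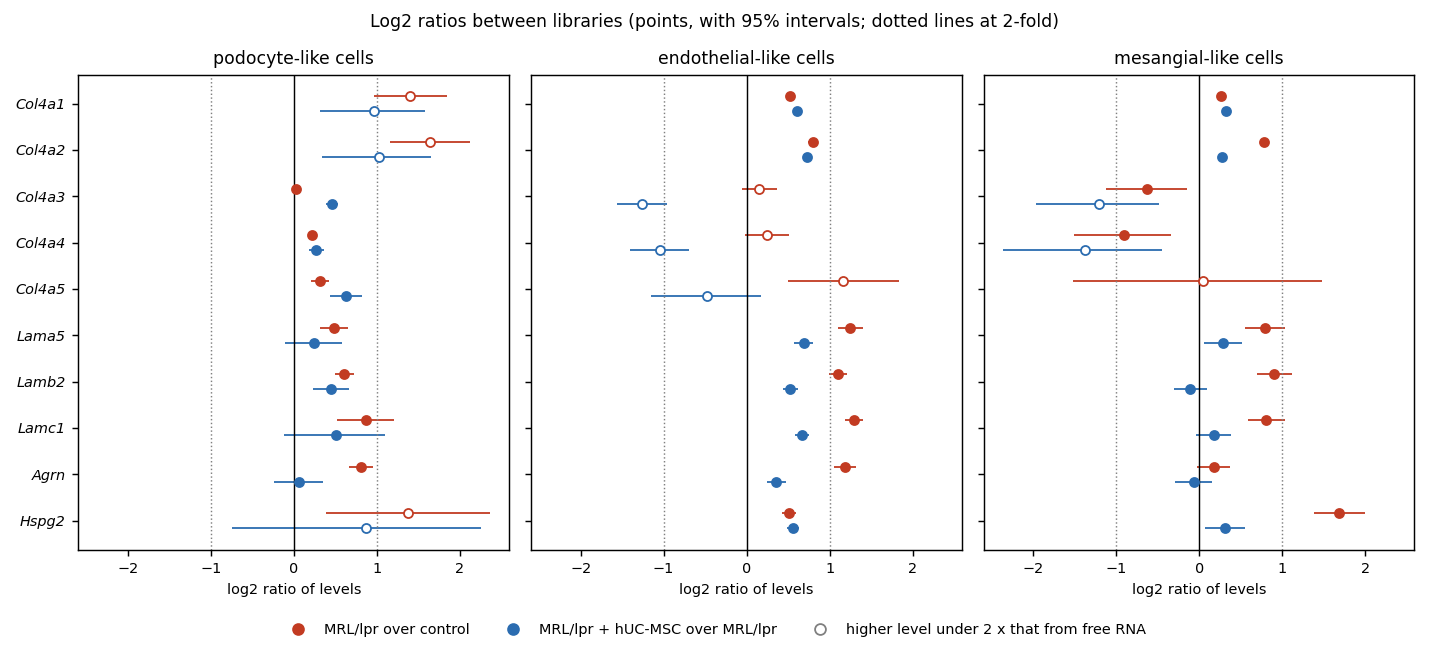
Log2 ratio of the level of each gene between libraries in the 3 classes, with 95% intervals and dotted lines at 2-fold, where open points are genes whose higher level was under 2 times that from free RNA. Filled points past 2-fold are *Lama5*, *Lamb2*, *Lamc1* and *Agrn* in endothelial-like cells and *Hspg2* in mesangial-like cells, all for MRL/lpr over control.

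The second comparison, MRL/lpr + hUC-MSC over MRL/lpr, asked what differed with the stem cells. In endothelial-like cells the 7 genes above free RNA were all higher again. *Col4a2* was higher by 0.73 (0.68 to 0.78) on the log2 scale, *Lama5* by 0.69 (0.57 to 0.80), *Lamc1* by 0.66 (0.58 to 0.75) and *Col4a1* by 0.61 (0.57 to 0.66). *Hspg2* was higher by 0.56 (0.48 to 0.63), *Lamb2* by 0.52 (0.43 to 0.61) and *Agrn* by 0.36 (0.25 to 0.47). In the endothelial-like cells without markers of the other 2 classes, *Agrn* differed by -0.10 (-0.64 to 0.45). The median of all genes was 0.13 in these cells. The 2 genes past 2-fold, against 10.5% of all genes, were *Col4a3* (-1.26) and *Col4a4* (-1.04), both lower and under 2 times the free RNA level. In cells without markers of the other 2 classes these were -0.57 (-1.74 to 0.64) and -0.40 (-1.81 to 1.09).

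In podocyte-like cells, with 133 cells in the treated library, *Col4a5* was higher by 0.63 (0.44 to 0.82), *Col4a3* by 0.46 (0.38 to 0.53), *Lamb2* by 0.45 (0.23 to 0.66) and *Col4a4* by 0.27 (0.18 to 0.36). The intervals of *Lamc1* (-0.12 to 1.09), *Lama5* (-0.11 to 0.57) and *Agrn* (-0.24 to 0.35) held 0. The 1 gene past 2-fold, where 8.21% of all genes were, was *Col4a2* (1.02), from 80 and 28 UMIs and under 2 times the free RNA level. With free RNA subtracted *Col4a2* was at 2.85, a value set by the floor of 3 counts in MRL/lpr. In mesangial-like cells *Col4a1* was higher by 0.32 (0.28 to 0.36), *Hspg2* by 0.31 (0.06 to 0.56), *Lama5* by 0.29 (0.06 to 0.52) and *Col4a2* by 0.28 (0.23 to 0.33), beside a median of 0.12 over all genes. The intervals of *Lamc1* (0.17 (-0.04 to 0.38)), *Lamb2* (-0.11 (-0.31 to 0.10)) and *Agrn* (-0.07 (-0.29 to 0.15)) held 0. Within cluster 24 alone, the log2 ratios of 9 members ran from -1.25 to 0.82, where the highest over the whole class was 0.32. The values within this cluster were not set against those of all genes. At 200 to 3000 genes per cell *Hspg2* was higher by 1.14 (0.42 to 1.88). *Col4a3* (-1.21, 49 and 25 UMIs) and *Col4a4* (-1.38, 33 and 15 UMIs) were past 2-fold, both lower and under 2 times the free RNA level in both libraries, where 10.5% of all genes were past it. With members kept for clustering *Col4a4* was at -2.07 (-2.87 to -1.33). *Col4a3* was at -2.19 with free RNA subtracted, a value set by the floor of 3 counts. In MRL/lpr + hUC-MSC its level was 1.08 times that expected from free RNA. *Col4a5* had too few UMIs there for a ratio.

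The clusters of endothelial-like cells differ between libraries, so the ratios were also taken within clusters. *Lamc1* was at 36.1, 79.6 and 173 CPM in cluster 2, at 48.0, 84.2 and 145 CPM in cluster 6 and at 40.8, 100.3 and 176 CPM in cluster 15, the same order in each. For MRL/lpr over control its log2 ratio was 1.14, 0.81 and 1.30 in these clusters, and that of *Agrn* 1.31, 0.97 and 1.42. For *Lama5* it was 1.47, 0.93 and 1.06. That of *Lamb2* was 0.55 (0.05 to 1.01) in cluster 2, the largest of control. It was 1.53 (0.75 to 2.42) in cluster 6 and 1.01 (0.52 to 1.56) in cluster 15, and these intervals overlapped. Clusters 6 and 15 held only 122 and 126 barcodes of control, predicted doublets included. In cluster 2 *Hspg2* differed by 0.16 (-0.21 to 0.50). In cluster 3, with 2271 cells of control and 50 of MRL/lpr, *Lamc1* differed by 1.32 (0.78 to 1.82), *Agrn* by 1.30 (0.61 to 1.92), *Lama5* by 1.24 (0.41 to 1.96) and *Lamb2* by 1.06 (0.47 to 1.60). The interval of *Col4a1* held 0 there, at 0.24 (-0.05 to 0.51), and *Hspg2* differed by 0.73 (0.29 to 1.14). For MRL/lpr + hUC-MSC over MRL/lpr, cluster 2 had 198 and 174 cells, and *Lamb2* differed there by 1.58 (1.04 to 2.14) and *Lamc1* by 1.12 (0.62 to 1.64), both past 2-fold. The intervals of *Lama5* (0.46 (-0.17 to 1.09)) and *Agrn* (0.35 (-0.25 to 0.96)) held 0 in that cluster. In clusters 6 and 15 *Lamb2* differed by 0.60 (0.41 to 0.79) and 0.39 (0.25 to 0.53), *Lamc1* by 0.78 (0.59 to 0.98) and 0.81 (0.68 to 0.93), *Lama5* by 0.79 (0.54 to 1.05) and 0.64 (0.46 to 0.82), and *Agrn* by 0.46 (0.23 to 0.70) and 0.32 (0.14 to 0.49). *Hspg2* differed by 0.88 (0.44 to 1.33), 0.51 (0.36 to 0.66) and 0.36 (0.24 to 0.48) in clusters 2, 6 and 15. The 3 leading genes were *Cyp26b1*, *Slc26a10* and *Chst8* in cluster 2, *Cyp26b1*, *Slfn3* and *Ifit1* in cluster 3, *Aplnr*, *Gm30382* and *Scarletltr* in cluster 6, and *Calca*, *Tspan8* and *Tmem252* in cluster 15. Mesangial-like cluster 12 was led by *Olfr1033*, *Gm33206* and *Gm20186*, and cluster 24 by *Cdh11*, *Brinp1* and *Aldh1a2*.

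**Figure D4:**
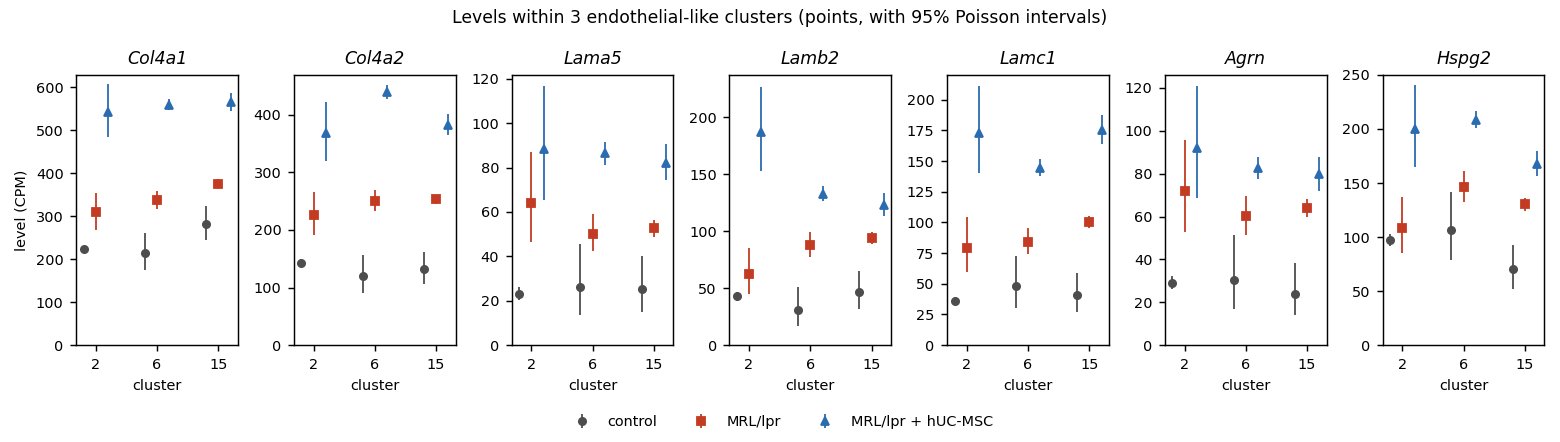
Level (CPM, linear axis from 0) of 7 genes within endothelial-like clusters 2, 6 and 15, by library, with 95% Poisson intervals. *Lamc1* was at 36.1, 79.6 and 173 CPM in cluster 2 in the order control, MRL/lpr, MRL/lpr + hUC-MSC, and had the same order in clusters 6 and 15.

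Laminin chains replace each other as the membrane matures, so the UMIs of α5 and β2 were set against those of α4 and β1 within a class. In endothelial-like cells *Lamb2* over *Lamb1* was 1.55 (1.42 to 1.70), 2.93 (2.67 to 3.23) and 6.28 (5.64 to 7.01), and these intervals did not overlap. *Lamb1* itself was at 27.6, 31.3 and 21.02 CPM there. In mesangial-like cells the same ratio was 0.683, 0.876 and 0.547. *Lama5* over *Lama4* was 1.01, 1.40 and 1.39 in endothelial-like and 1.77, 3.21 and 5.81 in mesangial-like cells. In podocyte-like cells *Lamb1* had 11, 14 and 0 UMIs beside 1688, 940 and 222 of *Lamb2*. *Col4a3* over *Col4a4* in podocyte-like cells was 1.51, 1.32 and 1.501, and *Col4a1* over *Col4a2* in mesangial-like cells 1.94, 1.35 and 1.40. A ratio of UMIs of 2 genes also holds their difference in transcript length and capture, so it is read between libraries and classes only. The endothelial-like and mesangial-like UMIs were pooled over clusters that differ between libraries. These ratios were not taken within clusters.

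**Figure D5:**
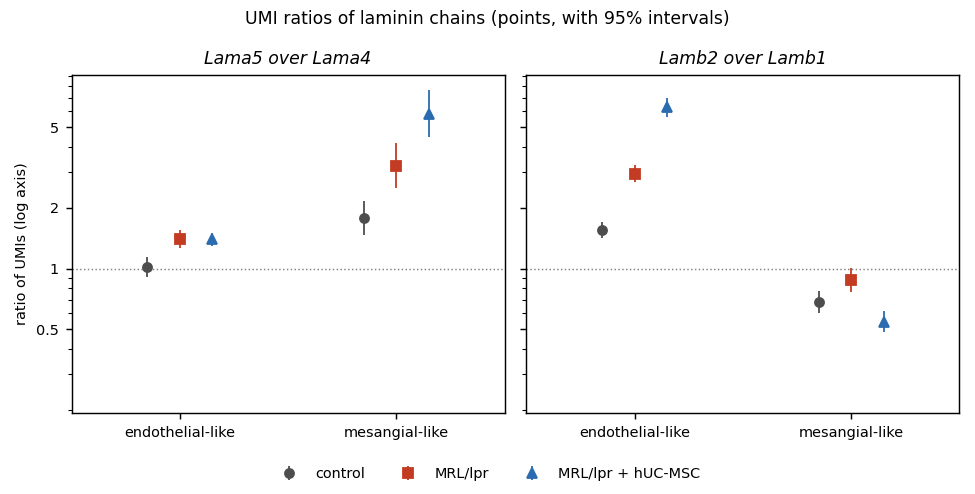
Ratio of UMIs (log axis) of *Lama5* over *Lama4* and of *Lamb2* over *Lamb1* in endothelial-like and mesangial-like cells, by library, with 95% conditional binomial intervals. *Lamb2* over *Lamb1* was 1.55, 2.93 and 6.28 in endothelial-like cells, and *Lama5* over *Lama4* 1.77, 3.21 and 5.81 in mesangial-like cells. UMIs were pooled over clusters that differ between libraries.

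Other basement membrane chains and linkers split over the classes too, and 15 of 19 listed genes had enough UMIs to be placed. *Col4a6*, the α6 chain of type IV collagen, was led by podocyte-like cells at 9.33, 14.5 and 20.5 CPM, as was nephronectin (*Npnt*), a ligand of integrin α8β1, at 526, 771 and 809 CPM. Mesangial-like cells led for *Lama2*, *Nid1*, *Tinagl1* and *Frem2*, with the collagen and laminin linker *Nid1* at 159, 259 and 414 CPM. Endothelial-like cells led for 3 genes, among them *Lama3* and *Col15a1*, and 6 genes had no leading class. Over all genes tested, podocyte-like cells led 5.75%, mesangial-like cells 6.27% and endothelial-like cells 7.76%. In endothelial-like cells 4 of 14 tested genes were past 2-fold higher in MRL/lpr than in control and 0 lower, with a median of 0.62 on the log2 scale, where 16.2% of all genes were past 2-fold in either direction.

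Of 12 receptors of these networks, 5 were led by podocyte-like cells: *Itga3*, which pairs with integrin β1 to bind laminin 521, *Dag1* (dystroglycan), *Bcam*, *Ddr1* and *Sdc4*. *Itga3* was at 190.3, 275 and 332 CPM there. Over all genes tested, 5.75% were led by podocyte-like, 7.76% by endothelial-like and 6.27% by mesangial-like cells. *Itga6* and *Itgb4* were led by endothelial-like cells, and the collagen receptors *Itga1* and *Ddr2* by mesangial-like cells, where *Itga1* was at 279.6, 401 and 398 CPM. *Itga2*, another collagen receptor subunit, had no leading class and was higher by 3.03 (2.57 to 3.52) in mesangial-like cells for MRL/lpr over control. Of all genes there, 15.7% were past 2-fold in either direction. That ratio sets mostly cluster 12 of control against cluster 24 of MRL/lpr and is not per cell. For that comparison the medians of the tested receptors were 0.32 in podocyte-like, 0.35 in endothelial-like and 0.27 in mesangial-like cells.

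Among 12 genes of collagen folding, modification and crosslinking, podocyte-like cells led for *Plod2* and *P3h1*, which hydroxylate lysine and proline in collagen, and for the lysyl oxidase *Loxl2*. They led 5.75% of all genes tested. *Plod2* was at 387, 589 and 1040.5 CPM and *Loxl2* at 94.2, 121 and 246 CPM in podocyte-like cells. *Loxl2* was the 1 of 12 genes of this list past 2-fold there for MRL/lpr + hUC-MSC over MRL/lpr, at 1.02 (0.81 to 1.23), a share near the 8.21% of all genes. *Serpinh1*, the collagen chaperone HSP47, was lower in MRL/lpr than in control, with log2 ratios of -0.93 in podocyte-like, -1.03 in endothelial-like and -1.75 in mesangial-like cells. *Pxdn*, peroxidasin, which crosslinks type IV collagen, was higher by 1.06, 0.89 and 1.49 in the same order. Of all genes, 15.6, 16.2 and 15.7% were past 2-fold in either direction in these classes. The mesangial-like values set mostly cluster 12 of control against cluster 24 of MRL/lpr, at median depths of 21409.5 and 11229 UMIs, and are not per cell.

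Of 13 matrix proteases and inhibitors, 12 could be placed, and mesangial-like cells led for *Mmp2*, *Mmp14*, *Mmp3*, *Adamts5* and *Plau*. Over all genes tested, 6.27% were led by mesangial-like cells. The protease gene *Adamts5* was at 1379, 1619.5 and 1994 CPM in mesangial-like cells. For MRL/lpr over control 4 of 11 tested genes of the list were past 2-fold higher in endothelial-like cells and 0 lower, where 16.2% of all genes were past it in either direction.

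Of 6 regulators of these genes, 5 were led by podocyte-like cells, among them *Lmx1b*, *Wt1*, *Foxc2* and *Tcf21*, and *Wt1* had also served to name these cells. Of all genes tested, 5.75% were led by podocyte-like cells. *Lmx1b*, a transcription factor gene of podocytes, was at 114, 114 and 102 CPM and differed by 0.00 (-0.13 to 0.13) and -0.15 (-0.46 to 0.15) on the log2 scale in both comparisons. For MRL/lpr over control the median of the 6 regulators was -0.25 in podocyte-like cells, against -0.08 over all genes.

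Over the 28 pools of a cell class and a library with at least 50 cells, the levels most like that of *Col4a3* on the log2(CPM + 1) scale were those of *Arhgef16* (Pearson r = 0.97), *Dcdc2a*, *Mme*, *Bmp7* and *Prr15*, among 17005 genes, with markers and members left out. Among the members, r with *Col4a3* was 0.97 for *Col4a5* and 0.96 for *Col4a4*. The genes most like *Col4a1* were *Sorbs2* (r = 0.97), *Tinagl1*, *Adgrl1*, *Prex2* and *Tspan9*, and r with *Col4a2* was 0.98. These pools share libraries, depth and free RNA, and r is a description only.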

How the data were processed

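RNA of single glomerular cells was counted in droplets, in 1 library each of control, MRL/lpr and MRL/lpr + hUC-MSC mice. The authors deposited raw UMI counts per gene and barcode, before cells were called. The submitters' processing notes name STAR, Cell Ranger and mm10, and the matrix headers name Cell Ranger 4. All 10 gene IDs were found in GENCODE M21, as were 32235 of the 32285 in the files.

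Barcodes with at least 1000 UMIs and at most 10% mitochondrial UMIs were kept, from total counts of 90812138 to 103319588 per library. Doublet scores (Scrublet, in scanpy) were ranked, and 0.8% of barcodes per 1000 were marked as predicted doublets (971, 1593 and 2201). These were clustered and named with the other barcodes and left out before UMIs were summed. Cells were clustered on 2000 variable genes without the members and lists, with 10 principal components, 15 neighbours and Leiden resolution 1.0 (scanpy 1.11.5, igraph 0.11.9, Python 3.11.15, numpy 2.4.6, scipy 1.17.1). Clusters were named from markers. After the clusters had been seen, those with over 50% doublets were left unnamed.

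UMIs were summed per class and library. With 1 library per group no test between groups was made. Levels have exact Poisson, shares exact binomial and ratios exact conditional binomial 95% intervals. A ratio needed 20 UMIs in both libraries together, and a gene at 0 was set to 3 counts over the class. With free RNA subtracted, any remainder under 3 counts was set to 3. On Poisson counts simulated from the control pool for MRL/lpr over control in endothelial-like cells (14406 genes), 95.7% of intervals held the known ratio. These draws follow the counting model of the intervals and hold no variation between cells, clusters or mice. They therefore check the computation only.

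Named are the members, genes of the 5 lists, the 5 genes most like *Col4a3* and *Col4a1*, and the 3 leading genes of the clusters of the 3 classes. Some listed genes are not reported here. Members, lists and markers were chosen with earlier results of these data known. Alternatives were doublets kept, 200 to 3000 genes per cell, 2000 UMIs per cell, Leiden resolution 2.0, cells without other classes' markers, free RNA subtraction, scaling without mitochondrial and ribosomal genes, centring on the median gene, members kept for clustering, 100 UMIs per gene, and no thinning. UMIs per cell, the limit to members above free RNA and the minimum of 50 cells for an alternative were chosen after seeing the data. The free RNA subtraction was also corrected after its first values had been seen, so that it scales levels before it sets a gene to the floor.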

Additional observations from a re-analysis of the deposited data

Results flagged for a closer look

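The ratios of 2 genes pointed in opposite directions in different cell classes, with 95% counting intervals on opposite sides of 0. The differences themselves were not tested. For MRL/lpr over control, *Col4a4* had a log2 ratio of 0.21 in podocyte-like and -0.91 in mesangial-like cells. The mesangial-like interval held 0 at Leiden resolution 2.0, at 0.00 (-0.39 to 0.37), and with members kept for clustering, at -0.26 (-0.68 to 0.16). With free RNA subtracted the value was -3.43, set by the floor of 3 counts in MRL/lpr. For MRL/lpr + hUC-MSC over MRL/lpr, *Col4a3* was at 0.46 in podocyte-like cells, -1.26 in endothelial-like and -1.21 in mesangial-like cells. In the same comparison *Col4a4* was at 0.27 in podocyte-like cells, -1.04 in endothelial-like and -1.38 in mesangial-like cells. In endothelial-like cells without markers of the other 2 classes the intervals held 0, at -0.57 (-1.74 to 0.64) for *Col4a3* and -0.40 (-1.81 to 1.09) for *Col4a4*. Outside podocyte-like cells both genes were at 0.852 to 2.15 times the level expected from free RNA. In free RNA *Col4a3* was at 240.1, 130.5 and 71.7 CPM over control, MRL/lpr and MRL/lpr + hUC-MSC, where podocyte-like cells were 22.96, 6.14 and 0.925% of cells. With free RNA subtracted, for MRL/lpr + hUC-MSC over MRL/lpr, *Col4a3* was at -1.82 and *Col4a4* at -0.63 in endothelial-like cells. In mesangial-like cells *Col4a3* was at -2.19, set by the floor of 3 counts. Its level there in MRL/lpr + hUC-MSC was 1.08 times that expected from free RNA.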

How the results depend on the processing

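Podocyte-like, mesangial-like and endothelial-like cells led 3, 2 and 1 of the 10 genes under each alternative that gave a value, except UMIs per cell, under which endothelial-like cells led 0. Counts of genes past 2-fold were small and moved more. For MRL/lpr over control, podocyte-like cells went from 3 genes to 0 with free RNA subtracted or with members above free RNA only, and mesangial-like cells from 1 to 3 with free RNA subtracted and to 2 per cell. Among these 3, the value of *Col4a4* was set by the floor of 3 counts. For MRL/lpr + hUC-MSC over MRL/lpr, podocyte-like cells went from 1 gene to 2 with doublets kept and to 0 at 2000 UMIs per cell or above free RNA only. Endothelial-like cells went from 2 to 1 at 200 to 3000 genes or with free RNA subtracted and to 0 with other classes' markers left out or above free RNA only. Mesangial-like cells went from 2 to 1 with free RNA subtracted and to 0 with 100 UMIs per gene or above free RNA only. The 1 gene left, *Col4a3*, had its value set by the floor of 3 counts. In endothelial-like cells without other classes' markers 13 of 18 ratios lay outside the 95% interval they had over all cells of the class, and 1 changed direction.

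Cells without other classes' markers left under 50 podocyte-like and mesangial-like cells per library, so that only endothelial-like cells gave values, and the limit of 3000 genes left 33 mesangial-like cells of control, which were not used. No paired analysis was possible because each group has 1 library, and no replicate could be left out. Intervals do not cover differences between mice.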
